A study of Mus musculus with 10 samples.

Results

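The genes described here are 10 interferon-inducible genes of ISGylation and of the antiviral PARP and ubiquitin ligases, namely Isg15, Uba7, Ube2l6, Herc6, Trim25, Usp18, Parp9, Dtx3l, Parp12 and Parp14. They were chosen by name for these functions, and each was matched by its Ensembl identifier to the GENCODE symbols of the mouse. All 10 were found among the 14106 genes of the expression table. Brain endothelial cells (BECs) were profiled by RNA sequencing at an age of 1 year in females of 2 genotypes, APP/PS1 (5 libraries) and age matched controls labelled WT (5 libraries), both on the C3H/BL6 background. APP/PS1 mice carry amyloid precursor protein and presenilin transgenes with mutations of familial Alzheimer's disease and form Aβ plaques, and the promoter of the transgenes is not given in the sources used here. The BECs, described as CD31+CD45−, were isolated on beads from the dissociated cortex of perfused mice. No source used here says if each library represents a single mouse or several. Each group SD is therefore taken over libraries, not over known single mice. Because the pair means were almost equal, as described below, it follows the spread of the pair differences and is no independent spread of libraries. Each p value of a test over pairs likewise rests on the differences between paired libraries.

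ISG15 is a ubiquitin-like protein that cells make in response to interferon and attach to other proteins in a chain of steps named ISGylation. UBA7 activates ISG15, UBE2L6 carries it, a ligase passes it to the target (HERC5 in human cells, HERC6 in mice), and USP18 removes it. USP18 also binds the interferon receptor and dampens its signal. PARP9 and DTX3L form a complex of an ADP-ribosyltransferase family member and a ubiquitin ligase, PARP12 and PARP14 attach ADP-ribose to proteins, and TRIM25 is a ubiquitin ligase of the RIG-I pathway of RNA sensing. In the brain, the endothelium meets interferons both from the blood and from glial cells.

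Type I interferon acts largely through transcription factors that bind an interferon-stimulated response element (ISRE) near the start of a gene. The stretch from position −98 to −37 relative to the RefSeq start is therefore shown for the genes whose stretch lies outside the annotated gene, because it holds the ISRE letters of Isg15 and lets the same distance be read in the others. The sequences are from RefSeq (GRCm38.p6), 5′ to 3′ on the strand of the gene. Capitals mark the letters GAAANNGAAA.
Isg15, chr4:156200855-156200916, minus strand: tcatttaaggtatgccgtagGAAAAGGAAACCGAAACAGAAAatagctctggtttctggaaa
Herc6, chr6:57580894-57580955, plus strand: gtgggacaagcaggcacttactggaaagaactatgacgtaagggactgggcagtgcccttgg
Ube2l6, chr2:84798730-84798791, plus strand: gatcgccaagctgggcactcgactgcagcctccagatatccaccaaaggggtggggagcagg
Parp12, chr6:39118386-39118447, minus strand: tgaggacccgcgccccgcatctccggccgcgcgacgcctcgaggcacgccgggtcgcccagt
Trim25, chr11:88999305-88999366, plus strand: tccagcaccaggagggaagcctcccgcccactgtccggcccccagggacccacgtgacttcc

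Both strands of the windows from 250 bases before to 50 bases after each start were searched. A window was given for 7 of the 10 genes, not for Usp18, Parp9 and Parp14. Among these 7, the letters GAAANNGAAA were found in Isg15 alone, in 3 matches that overlap one another. They run from position −78 to −69, from −72 to −63 and from −66 to −57. Of all 32851 windows, 3.44% held these letters. The shorter GAAANNGAA, which every longer match also holds, was in 8.56% of all windows. Among the 7 genes it was found in Isg15 and in Trim25, where it lies on the opposite strand from position −9 to −1 (chr11:88999394-88999402), inside the first exon of the GENCODE gene. The letters TTCNNNGAA of a gamma-activated site were in 8.30% of all windows and in 0 of the 7. For comparison, the letters GAAANNGAAA were found for 12 of 22 other interferon-stimulated genes with a window. Among other PARP genes it was 2 of 11, Parp4 and Parp11, against 3.99% of all genes with a window. A match of letters describes the sequence and is not a measurement of binding, and the absence of a match says only that these letters are not in the window.

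Levels are the deposited log2 CPM, that is log2 of counts scaled by library size (CPM), after the batch correction of the authors. The adjusted counts behind these values summed to between 22371766 and 126686149 in a library, lowest in replicate 1 of each group. Isg15, the gene with the fewest adjusted counts of the 10, rested on 397 to 2601 adjusted counts in a library. The libraries were compared in 5 pairs, replicate n of the control with replicate n of APP/PS1. The mean of each pair had been made almost equal (the SD of the 5 pair means was 0.00223 log2 units at the median of the 10 genes), so a high value in a library comes with a low value in its partner. Each gene thus gives 5 differences rather than 10 independent values. The SD of a group likewise follows the spread of these differences. limma with the pair as a replicate block was used for the tests, adjusted over all genes.

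Isg15, which encodes the modifier, Usp18, whose product removes it, and the PARP genes Parp14 and Parp9 had higher values in the APP/PS1 library of 5 of 5 pairs. Isg15 was 1.27-fold higher, Usp18 1.12-fold, Parp14 1.12-fold and Parp9 1.06-fold. The activating enzyme Uba7, the carrier Ube2l6 and the ligases Herc6 and Trim25 had mean differences within 0.05 log2 units of 0, each higher in some pairs and lower in others. None of the 10 genes passed an adjusted p of 0.05, and neither did any of the 14106 genes (0% called, smallest adjusted p = 0.195). At an unadjusted p under 0.05, 3 of the 10 genes were higher and 0 lower. Of all 14106 genes, 300 (2.13%) were higher and 833 lower at that p. Higher in all 5 pairs were 4 of the 10, against 2.99% of all genes. The same 4 genes, Isg15, Usp18, Parp9 and Parp14, had every APP/PS1 library above every control library, against 2.91% of all genes. With pair means almost equal, this nearly follows from being higher in all 5 pairs, and it is not a separate result. Over the 10 genes 8 differences were above 0 and 2 below, with a median of 0.09 log2 units. Over all genes 6798 were above 0 and 7308 below, with a median of −0.0038 log2 units.

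**Figure D1:**
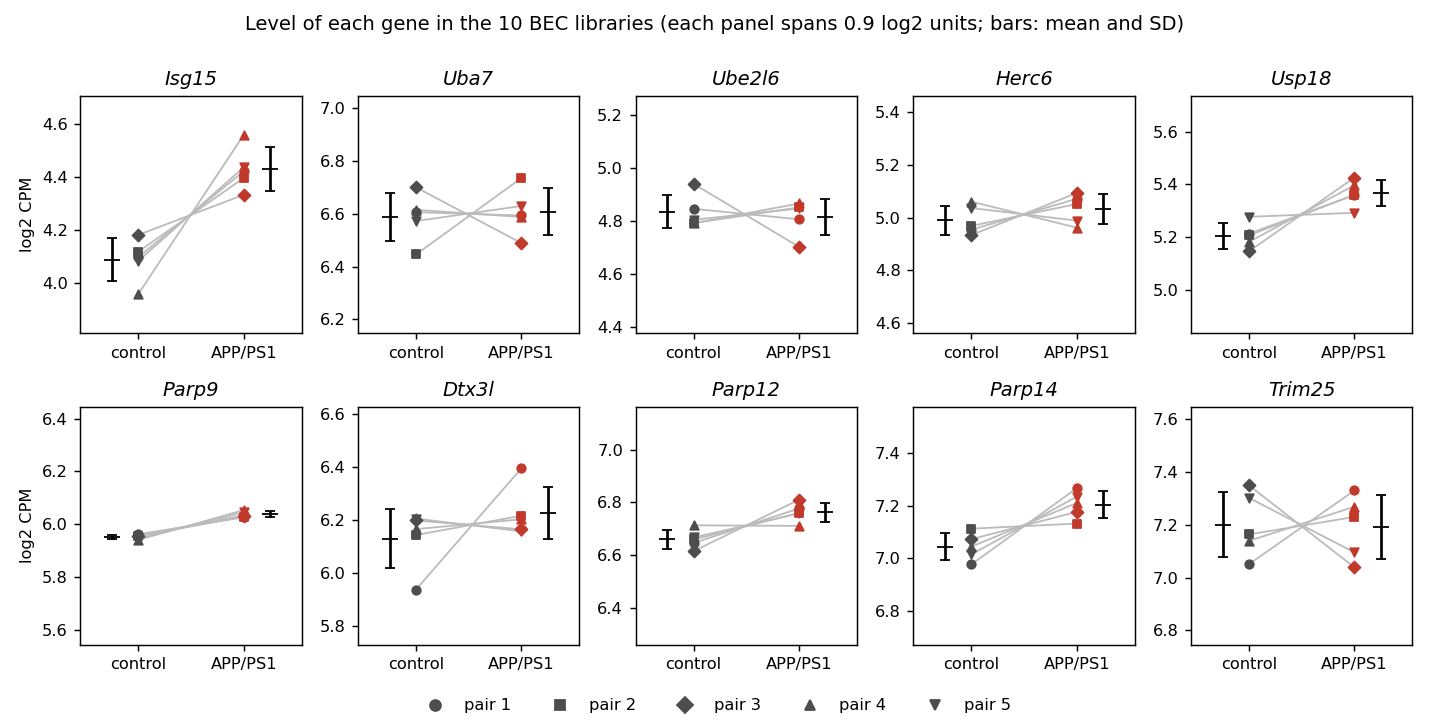
Level of each gene (log2 CPM) in the 5 control and 5 APP/PS1 libraries, with a line joining the libraries of a pair and a bar for the mean and SD of each group. The groups are apart in Isg15, Usp18, Parp9 and Parp14 and overlap in the other genes.

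Isg15 (ENSMUSG00000035692, chr4:156199424-156200818, minus strand, GRCm38) encodes the ubiquitin-like modifier. Its level in control libraries 1 to 5 was 4.10, 4.12, 4.18, 3.96 and 4.08 log2 CPM. In APP/PS1 libraries 1 to 5 it was 4.42, 4.40, 4.33, 4.56 and 4.44 log2 CPM. Every APP/PS1 library was above every control library, and pair 4 held both the lowest control and the highest APP/PS1 value. The 2 group means were 4.09 ± 0.08 and 4.43 ± 0.08 log2 CPM (SD, n = 5 libraries each), a difference of 0.34 log2 units with an SE of 0.07 and a 95% interval from 0.16 to 0.52. The adjusted p was 0.451 in limma. The differences of the 5 pairs were 0.33, 0.28, 0.15, 0.60 and 0.36 log2 units. Isg15 had the largest difference of the 10 genes in pairs 4 and 5, whereas the largest was that of Dtx3l in pair 1, Uba7 in pair 2 and Usp18 in pair 3.

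Usp18 (ENSMUSG00000030107, chr6:121245906-121270917, plus strand) encodes the protease that takes ISG15 off its targets. Its level in control libraries 1 to 5 was 5.21, 5.21, 5.15, 5.18 and 5.28 log2 CPM. In APP/PS1 libraries 1 to 5 it was 5.36, 5.36, 5.43, 5.40 and 5.29 log2 CPM. The groups did not overlap, but only 0.02 log2 units lay between the libraries of pair 5, the highest control and the lowest APP/PS1 value. The difference was 0.16 log2 units with an SE of 0.05, a 95% interval from 0.03 to 0.29 and an adjusted p of 0.569. A noncoding gene on the opposite strand, Gm44148, overlaps 124 bases of an exon of Usp18. Its level was 0.07 log2 CPM with a difference of −0.10 log2 units.

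The enzymes that attach ISG15 had small mean differences, and their groups overlapped. Uba7 (ENSMUSG00000032596, chr9:107975505-107984060, plus strand), the E1 enzyme, ranged from 6.45 to 6.70 log2 CPM in the control libraries and from 6.49 to 6.74 in APP/PS1 libraries. Its difference was 0.02 log2 units (SE 0.08, 95% interval from −0.17 to 0.21, adjusted p = 0.968), higher in 2 of 5 pairs, and −0.02 when the libraries were scaled by library size alone. Ube2l6 (ENSMUSG00000027078, chr2:84798828-84810335, plus strand), the E2 enzyme, ranged from 4.79 to 4.94 log2 CPM in the control libraries and from 4.70 to 4.87 in APP/PS1 libraries. Its difference was −0.02 log2 units (SE 0.06, 95% interval from −0.17 to 0.13, adjusted p = 0.959), lower in pairs 1 and 3 and higher in the other 3. Herc6 (ENSMUSG00000029798, chr6:57581000-57664632, plus strand), the ISG15 ligase of the mouse, ranged from 4.93 to 5.06 log2 CPM in the control libraries and from 4.96 to 5.09 in APP/PS1 libraries. Its difference was 0.04 log2 units (SE 0.06, 95% interval from −0.10 to 0.18, adjusted p = 0.893), higher in pairs 1 to 3 and lower in pairs 4 and 5. For each of these genes the interval includes 0, and its upper end is below the mean difference of Isg15.

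The level of Isg15 was set against that of its enzymes within each pair. The log2 ratio of Isg15 to Ube2l6 was higher in the APP/PS1 library of 5 of 5 pairs, by 0.36 log2 units on average and by 0.22 to 0.53 in a pair. To Uba7 it was higher by 0.32 log2 units and to Herc6 by 0.30, each in 4 of 5 pairs. To Usp18 it was higher by 0.18 log2 units, in 4 of 5 pairs. In the exact two-sided sign-flip test over 5 pairs, the p was 0.0625 for Ube2l6, the smallest that 5 pairs can give. It was 0.13 for Uba7 and Herc6 and 0.188 for Usp18 in the same exact test. Adjusted over these 4 ratios the p of the exact test was 0.167, 0.167, 0.167 and 0.188. With 5 pairs this test cannot fall below 0.05 for any data, so it cannot decide whether a ratio differed.

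Trim25 (ENSMUSG00000000275, chr11:88999376-89020293, plus strand) encodes a ligase of the RIG-I pathway. It ranged from 7.05 to 7.35 log2 CPM in the control libraries and from 7.04 to 7.33 in APP/PS1 libraries, so that the groups overlapped almost fully. Its difference was −0.01 log2 units (SE 0.10, 95% interval from −0.25 to 0.23, adjusted p = 0.989), from −0.31 in pair 3 to 0.28 in pair 1. This was the widest scatter among pairs of the 10 genes, with an SD of 0.24 log2 units.

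**Figure D2:**
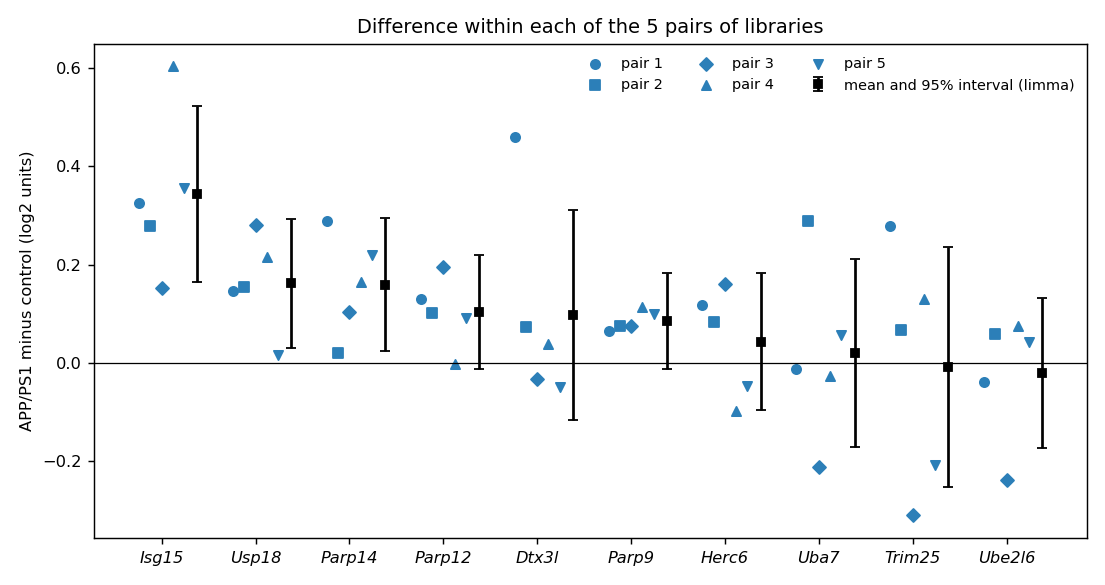
Difference between the APP/PS1 and the control library of each pair (log2 units), by gene in order of the mean difference. Black squares and bars are the limma mean and its 95% interval, which lies above 0 for Isg15, Usp18 and Parp14.

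Parp14, Dtx3l and Parp9 are neighbours on chromosome 16, where 54.97 kb separate Parp14 from Dtx3l. Parp14 (ENSMUSG00000034422, chr16:35832874-35871544, minus strand) encodes a mono-ADP-ribosyltransferase with macrodomains. Its level in control libraries 1 to 5 was 6.98, 7.11, 7.07, 7.04 and 7.01 log2 CPM. In APP/PS1 libraries 1 to 5 it was 7.27, 7.13, 7.18, 7.21 and 7.23 log2 CPM. All APP/PS1 libraries were above all control libraries, and the libraries of pair 2 lay closest together. The difference was 0.16 log2 units with an SE of 0.05, a 95% interval from 0.02 to 0.29 and an adjusted p of 0.575.

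Parp9 (ENSMUSG00000022906, chr16:35938470-35972605, plus strand) encodes the macrodomain partner of DTX3L. Its level was between 5.94 and 5.96 log2 CPM in the 5 control libraries and between 6.03 and 6.05 in the 5 APP/PS1 libraries. The shift was small and nearly the same in each pair, with differences of 0.06, 0.07, 0.08, 0.11 and 0.10 log2 units. Their SD was 0.02 log2 units, and only 15 of the 14106 genes (0.106%) had a smaller one. In limma, which draws the spread of each gene towards that of the others, the difference of 0.09 log2 units had an SE of 0.04, a 95% interval from −0.01 to 0.18 and an adjusted p of 0.687.

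Dtx3l (ENSMUSG00000049502, chr16:35926511-35939151, minus strand) encodes the ubiquitin ligase of the complex. Its level in control libraries 1 to 5 was 5.94, 6.14, 6.20, 6.17 and 6.21 log2 CPM. In APP/PS1 libraries 1 to 5 it was 6.40, 6.22, 6.16, 6.20 and 6.16 log2 CPM. Both libraries of pair 1 stood apart from the rest of their group, and the other pairs overlapped. The difference was 0.10 log2 units (SE 0.09, 95% interval from −0.12 to 0.31, adjusted p = 0.845), and 0.007 without replicate 1. Parp9 and Dtx3l start head to head, with 682 bases in common and up to 367 bases of exon shared on opposite strands. The sources used here do not state whether the counting used strand, so reads of that stretch cannot be assigned to either gene with certainty.

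Parp12 (ENSMUSG00000038507, chr6:39086410-39118349, minus strand) encodes a zinc finger mono-ADP-ribosyltransferase. Its level in control libraries 1 to 5 was 6.65, 6.66, 6.62, 6.71 and 6.67 log2 CPM. In APP/PS1 libraries 1 to 5 it was 6.78, 6.76, 6.81, 6.71 and 6.76 log2 CPM. The groups touched in pair 4, where both libraries were at 6.71, and 4 of 5 pairs were higher. The difference was 0.10 log2 units (SE 0.05, 95% interval from −0.01 to 0.22, adjusted p = 0.682).

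The calls depended on how the pairs were treated. Without the replicate block, limma counted 8 residual degrees of freedom in place of 4 and called 4 of the 10 genes, all higher, against 1.37% of all genes. The adjusted p was then 0.00922 for Isg15, 0.0295 for Usp18, 0.0294 for Parp9 and 0.0356 for Parp14. With the block, Isg15 was the only gene of the 10 below an unadjusted p of 0.05 without replicate 1, without replicate 3 and without replicate 4, and also with library size alone. The median of the 10 genes was 0.06 log2 units without replicate 1 and 0.05 with library size alone, which moved the median of all genes to −0.04.

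Compared per kb of exon, the control BECs held most of Trim25, Parp12 and Isg15, at 4.68 ± 0.12, 4.66 ± 0.04 and 4.49 ± 0.08 log2 CPM per kb (SD, n = 5). Next came Uba7 at 3.85, Ube2l6 at 3.84, Parp14 at 3.83, Usp18 at 3.72, Parp9 at 3.67 and Dtx3l at 3.61 log2 CPM per kb. Herc6 was lowest at 1.77 log2 CPM per kb. Neighbours in this order overlapped between control libraries, except that all libraries of Parp12 were above those of Isg15, those of Isg15 above those of Uba7, and those of Dtx3l above those of Herc6. In APP/PS1 BECs Isg15 stood first at 4.83 ± 0.08 log2 CPM per kb, then Parp12 at 4.76 and Trim25 at 4.67, with overlap between libraries of these neighbours. Parp14 and Usp18 followed at 3.99 and 3.89 log2 CPM per kb, and Herc6 remained last at 1.82. The length is the union of all annotated exons, and the lengths of the transcripts present were not measured.

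**Figure D3:**
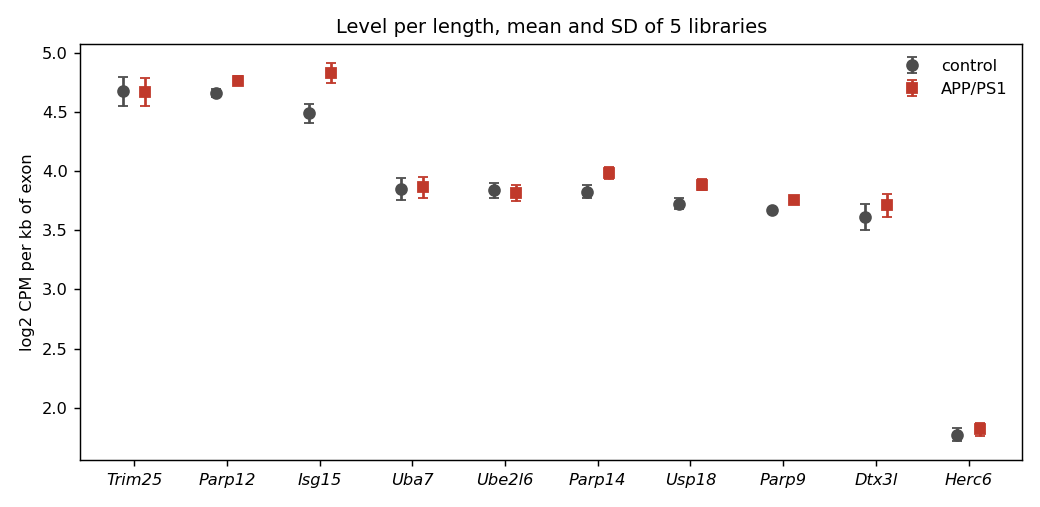
Level per kb of exon (log2 CPM per kb) of each gene in control and APP/PS1 BECs, as mean and SD of 5 libraries. Isg15 is behind Trim25 and Parp12 in control BECs at 4.49 and first in APP/PS1 BECs at 4.83, and Herc6 is last in both.

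Relatives of the 10 genes were compared by family. For comparison, 6798 of all 14106 genes were higher and 7308 lower, with 300 and 833 of these below an unadjusted p of 0.05. Ube2l3, the closest relative of Ube2l6 and a carrier of ubiquitin, differed by −0.04 log2 units (adjusted p = 0.874). Uba1, the main activating enzyme of ubiquitin, differed by −0.0069 log2 units (adjusted p = 0.985). Of 12 other ubiquitin-like modifiers and ubiquitin genes, 8 other E1 enzymes and 29 other E2 enzymes in the table, 0 were below an unadjusted p of 0.05 in either direction. Their median differences were −0.02, −0.02 and 0.02 log2 units. The 7 measured genes of ISG15 partners and other ISG15-reactive proteases likewise had 0 below that p, with 3 higher, 4 lower and a median of −0.01 log2 units.

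The other HERC genes were higher in 4 of 4, with a median of 0.08 log2 units and 0 below an unadjusted p of 0.05. Herc3 differed by 0.12 log2 units (adjusted p = 0.815) and Herc4 by 0.08 (adjusted p = 0.809). Of 13 other PARP genes, 9 were higher and 4 lower, with a median of 0.02 log2 units. Parp10, another interferon-inducible mono-ADP-ribosyltransferase, differed by 0.10 log2 units (adjusted p = 0.819) and Zc3hav1, the zinc finger antiviral protein, by 0.05 (adjusted p = 0.885). Parp8 was the 1 gene below an unadjusted p of 0.05, at −0.47 log2 units and lower in 4 of 5 pairs (adjusted p = 0.608), with means of 1.39 log2 CPM in the control and 0.92 in the APP/PS1 group.

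The enzymes that remove ADP-ribose were higher in 2 and lower in 5 of 7, with a median of −0.06 log2 units and 0 below an unadjusted p of 0.05. All 4 other Deltex genes were lower, with a median of −0.36 log2 units and 0 below that p. Among them Dtx3, the closest relative of Dtx3l, was lower in 5 of 5 pairs, from 6.08 ± 0.05 to 5.95 ± 0.05 log2 CPM (SD, n = 5), with a difference of −0.13 log2 units and an adjusted p of 0.661 in limma.

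The genes of the interferon receptor and its signalling, which include transcription factors and also Socs1, were higher in 10 of 10. Their median was 0.12 log2 units, and 3 were below an unadjusted p of 0.05. These were Stat2 at 0.15 and Irf9 at 0.15 log2 units, both higher in 5 of 5 pairs, and Irf7 at 0.28, higher in 4 of 5 (adjusted p = 0.569, 0.569 and 0.571). Of 26 other interferon-stimulated genes 24 were higher and 2 lower, with a median of 0.16 log2 units. Of these, 10 were below an unadjusted p of 0.05, all higher, against 2.13% of all genes. Higher in all 5 pairs were 12 of them, against 2.99% of all genes.

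Ifit1, which binds viral RNA, was higher by 0.34 log2 units (SE 0.04, adjusted p = 0.238), from 6.06 to 6.08 log2 CPM in the control libraries and from 6.40 to 6.42 in APP/PS1 libraries. Ifit3 and Ifit3b were higher by 0.31 and 0.34 log2 units (adjusted p = 0.399 and 0.470). The latter are near-identical copies whose reads can be split between them. Of 16 interferon-regulated TRIM and RNF ligases 14 were higher, with a median of 0.04 log2 units, 1 of them below an unadjusted p of 0.05. This was Rnf213, a very large ring finger ligase that binds ISGylated proteins, at 0.18 log2 units in 4 of 5 pairs (adjusted p = 0.597). Trim21, an antibody receptor in the cytosol, was at 0.08 log2 units (adjusted p = 0.867).

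**Figure D4:**
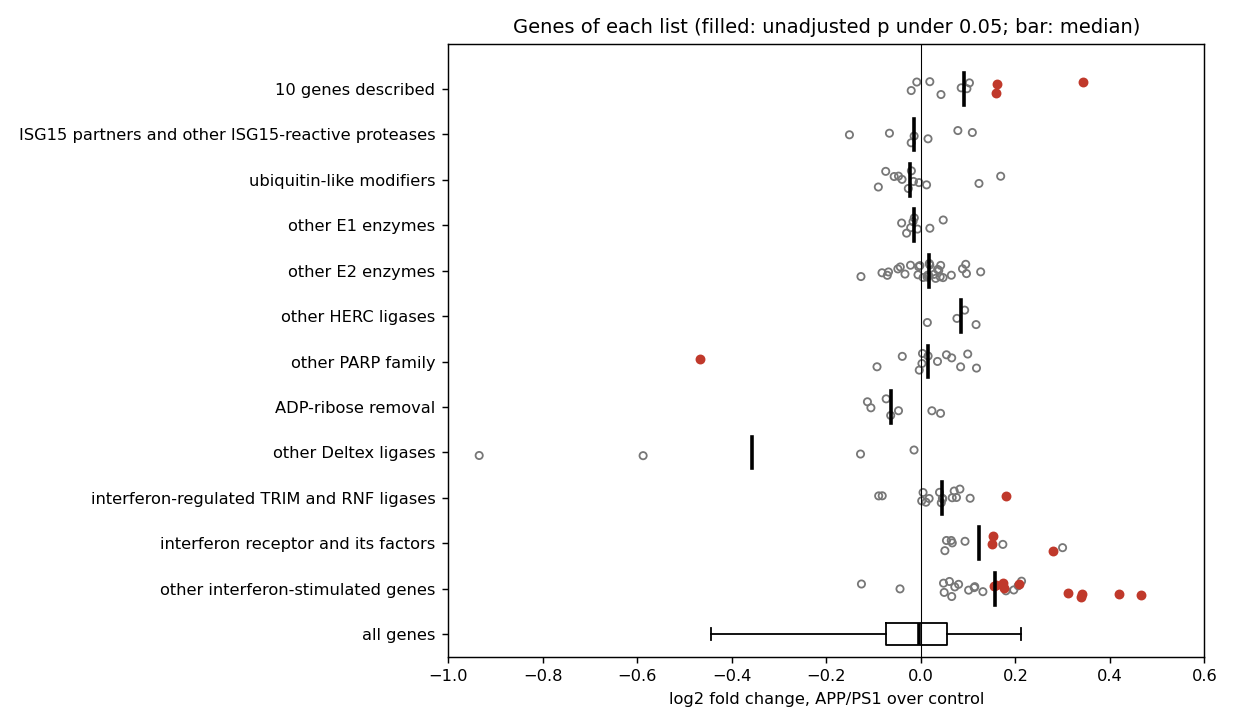
Log2 fold change of each gene of the 10 described and of 11 lists of relatives and pathway genes, with a box for all 14106 genes (whiskers at the 5th and 95th percentiles). Filled points have an unadjusted p under 0.05, and the medians lie between −0.36 for the other Deltex ligases and 0.16 for the other interferon-stimulated genes.

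The pattern over pairs most like that of Isg15 was looked for among 12180 genes with a mean of at least 1 log2 CPM, by the root mean square distance between the 5 pair differences. The nearest were Susd6 at 0.08 log2 units, Utp14b at 0.12, the processed pseudogene Gm3555 at 0.13, and Ifit1 and Lonrf3 at 0.14. Each was higher in 5 of 5 pairs, from 0.23 log2 units for Lonrf3 to 0.34 for Ifit1. Since Isg15 was higher in every pair, this nearly follows from the choice by distance, and it is not a separate result. Of the other 9 genes described here, Parp14 was the nearest at 0.24 log2 units, with 120 other genes nearer, followed by Usp18 at 0.26 with 207 nearer.

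Markers of the cells in the sample were summed in each library. All 12 endothelial markers were in the table, with a median level of 10.2 log2 CPM. Of these, 10 were higher and 2 lower, with a median difference of 0.06 log2 units and 0 below an unadjusted p of 0.05. Their sums were 24884 to 27009 CPM in the control and 24847 to 27013 CPM in APP/PS1 libraries, higher in 4 of 5 pairs. Of 14 microglia and leukocyte markers, 12 were in the table and 2, Aif1 and Itgam, were not, at sums of 63.7 to 76.4 and 59.6 to 71.5 CPM. Of these 12, 5 were higher and 7 lower, with a median difference of −0.08 log2 units and 0 below an unadjusted p of 0.05. All 8 mural cell markers were lower, 7 of them below an unadjusted p of 0.05, where 833 of all 14106 genes were lower. Their sum was 562 to 949 CPM in the control and 286 to 560 CPM in APP/PS1 libraries. All 10 oligodendrocyte lineage markers in the table were also lower, 6 of them below that p, with sums of 63.5 to 307 and 44.6 to 158 CPM. This sum was higher in 1 of 5 pairs, by 1.32 log2 units in pair 2. Of 6 astrocyte markers 5 were lower, 2 of them below that p, with a median difference of −0.66 log2 units and sums of 162 to 199 and 170 to 210 CPM. Of the 4 neuron markers in the table, out of 9, 3 were lower, 2 of them below that p, with a median difference of −0.61 log2 units and sums of 93.7 to 117 and 97.8 to 122 CPM. The astrocyte and neuron sums overlapped between the groups and were each higher in 2 of 5 pairs. The median difference was −0.76 log2 units for the mural and −1.05 for the oligodendrocyte lineage markers. The part of the endothelial, mural, oligodendrocyte, astrocyte and neuron marker differences in the values of the 10 genes was not tested. In bulk RNA, fewer cells of a type and less RNA per cell cannot be told apart.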

How the data were processed

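Bulk RNA sequencing of BECs was analysed in 10 libraries, 5 APP/PS1 and 5 control, grouped by their labels. By the study's methods, the authors aligned reads to mm10 with STAR, counted them with HTSeq-count, removed weakly expressed genes with filterByExpr of edgeR, computed log2 CPM and corrected for batch with ComBat of sva. Tool versions, and whether the batch correction kept genotype as a term, are not given in the sources used here. The authors deposited the log2 values as a table and as 10 files per library, which equalled their columns. All values (100%, tolerance 0.01) convert back to whole adjusted counts with a prior count of 3. Counting error cannot be derived from adjusted counts and was left out of the main fit. The limma-voom alternative took its weights from these adjusted counts, so the weights need not reflect the error of the original reads.

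With R 4.3.3 and limma 3.58.1, lmFit and eBayes were fitted to the deposited log2 values of all 14106 genes, with genotype and the replicate number (5 pairs) as terms and Benjamini-Hochberg adjustment. The study's supplement gives 5 batches of 1 library per group, which the replicate numbers follow. The labels give 4 batches. The pair means were equal (median SD 0.00353 log2 units over genes, beside 0.17 for the pair differences), so a model without the pairs overstates its degrees of freedom. Fits were tested on simulated data. Symbols, positions and exon lengths came from GENCODE M21 (GRCm38, the same assembly as mm10), with 14106 of 14106 identifiers matched, and promoter sequences from RefSeq. The 10 genes and all lists were chosen with earlier results of these data known, so no p is given for a list. Named besides the 10 were up to 3 genes of each list with the smallest unadjusted p under 0.05, the closest relatives, some interferon pathway genes, and the 5 genes most like Isg15. A gene named by this rule is not reported here. Sema5b and Gm15564, in the last section, were added after their values were seen. The 13 alternatives covered the block, scaling, prior count, limma-voom, a trend, a filter on low levels and leaving out each replicate.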

Additional observations from a re-analysis of the deposited data

Results flagged for a closer look

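Dtx3l stood apart in replicate 1 of both groups. Its level was 5.94 log2 CPM in control library 1, with the other control libraries between 6.14 and 6.21, and the gap to the nearest was 0.769 of the whole range. In APP/PS1 library 1 it was 6.40 log2 CPM, with the others between 6.16 and 6.22 and a gap of 0.753 of the range. The difference of pair 1 was 0.46 log2 units, against −0.05 to 0.07 in the other pairs, a gap of 0.761 of the range. The limit for 5 values is 0.71 (Dixon's 95% critical value). These 3 results rest on the same 2 libraries, whose values mirror each other. Chance marks about 1 in 20 groups, and 30 groups were searched, so that 1.5 would be expected. Replicate 1 also had the lowest totals of adjusted counts, 22993426 in the control and 22371766 in the APP/PS1 library. The part of the lower totals in the values of Dtx3l was not tested.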

How the results depend on the processing

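Of 130 values of the 10 genes under the 13 alternatives, 125 kept their direction. Uba7 became −0.0182 log2 units with library size alone, and without each replicate in turn its range was −0.0484 to 0.0767, that of Ube2l6 −0.0440 to 0.0343 and that of Trim25 −0.0803 to 0.0671. Without the replicate block the log2 fold changes of Isg15 (0.34), Usp18 (0.16), Parp9 (0.0855) and Parp14 (0.16) passed the adjusted threshold, and 648 of all genes passed. With the 4 batches of the labels 1 gene passed, and without each replicate 0 to 5. The number of the 10 genes below an unadjusted p of 0.05, 3 in the report, was 5 without the replicate block, with 4 batches, with a trend and with limma-voom, 1 with library size alone, and 1 to 3 without each replicate. Over the 11 other lists, 15 genes were below that p, against 44 without the replicate block, 9 with library size alone and 7 to 21 without each replicate. The median of the 10 genes was 0.0542 log2 units with library size alone and 0.0589 to 0.0959 without each replicate. Counts within single lists moved by over 1.5 times, or to or from 0, in 33 cases. In the other 110 they were equal or changed by at most 1.5 times, and many of these were 0 in both fits. The causes were not tested. The lack of reads before the batch correction limits the precision, since no counting error can be given.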

Other observations

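The genes around Parp14, Dtx3l and Parp9 on chromosome 16 did not share their direction. Within 200 kb on each side, 8 other genes were in the table, of which 2 were higher and 6 lower, 0 were higher in all 5 pairs, and the median difference was −0.06 log2 units. The 2 higher genes had means of 6.69 and 6.60 log2 CPM and were each higher in 4 of 5 pairs. The 6 lower genes had lower means, from 0.40 to 5.43 log2 CPM. The differences ran from −0.67 for Sema5b to 0.28 log2 units for the antisense gene Gm15564. Sema5b, a semaphorin gene at a mean of 0.40 log2 CPM, was lower in 5 of 5 pairs (adjusted p = 0.303 in limma). Gm15564 overlaps the end of Parp9 on the opposite strand and runs beyond it, with 0 bases of exon shared (adjusted p = 0.752 in limma).

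The small SD of Parp9 over pairs was matched by Ifit1. The SD of its 5 pair differences was 0.019 log2 units, and 11 of 14106 genes (0.078%) had a smaller one. The differences of Ifit1 ran from 0.32 to 0.36 log2 units and those of Parp9 from 0.06 to 0.11. In contrast, the SD over pairs was 0.16 log2 units for Isg15 and 0.24 for Trim25. Other interferon-stimulated genes were less even, with differences from 0.14 to 0.45 log2 units for Ifit3 and from 0.18 to 0.56 for Ifit3b. The part of counting error in these SDs was not tested.

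In each pair taken alone, the median difference of the 10 genes was above that of all genes. It was 0.14, 0.08, 0.09, 0.09 and 0.05 log2 units in pairs 1 to 5, with 8, 10, 6, 7 and 7 of the 10 genes higher, while the median of all genes lay between −0.0087 and 0.0014. Pair 2 was the only pair in which all 10 genes were higher.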
